A study of Homo sapiens with 4 samples.

Results

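The genes described here lie on the long arm of chromosome 7, from 75 Mb to its end. This is not the whole arm, and in the results below "the arm" means this part. They were chosen by position, as every gene of the table that starts at 75 Mb or beyond, leaving out MET, the STEAP genes and the numbered ZNF genes (21 genes). The stretch itself was selected on the contrast between the groups, because its genes stood higher in PC-3-RRM2, so the fold changes below are a description of that shift and carry no test. The rule gave 499 of the 17634 genes listed, and 445 of them had enough counts to be tested. The cells were PC-3, an androgen receptor-negative human line first grown from a prostate cancer metastasis in bone. They had been infected with lentivirus and kept as stable lines under puromycin. PC-3-EV (n = 2 libraries) received the empty vector and PC-3-RRM2 (n = 2 libraries) the same with RRM2. The effect of the transgene and a difference between the selected lines cannot be told apart.

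The long arm of chromosome 7 holds genes of many unrelated kinds rather than one pathway. They include the growth factor HGF and its neighbours, laminin and reelin genes of the extracellular matrix, the imprinted genes PEG10 and MEST, the histone methyltransferase EZH2 and the developmental signal SHH near the end of the arm. Genes next to each other on a chromosome can share a promoter region or a chromatin domain, so that a table of expression can also be read by position.

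RRM2, the small subunit of ribonucleotide reductase and the gene that was introduced, had 21.8 and 20.8 CPM (counts scaled to library size) in the PC-3-EV libraries against 96.6 and 98.8 CPM in the PC-3-RRM2 libraries. The libraries held between 30149181 and 37801301 estimated counts. Of prostate and other cell markers, summed CPM were 540 to 625 in PC-3-EV against 626 to 718 in PC-3-RRM2 for 5 epithelial genes, and 55.1 to 57.2 and 29.1 to 30.3 for 4 endothelial genes. The endothelial sum was carried by KDR (33.02 and 32.01 CPM against 19.5 and 20.6 CPM) and PECAM1 (24.1 and 23.02 CPM against 9.28 and 9.26 CPM), both called lower, while CDH5 was at 0 in PC-3-EV and VWF was at most 0.13 CPM. The 5 fibroblast markers summed to 68.3 to 84.9 CPM in PC-3-EV against 61.2 to 86.6 CPM in PC-3-RRM2, nearly all of it COL1A1, and the groups overlapped. The 3 leukocyte markers summed to 103 to 108 CPM and 92.6 to 108 CPM, nearly all of it CD68. The 5 genes of androgen response and prostate identity summed to 34.3 to 36.0 CPM and 24.9 to 25.4 CPM. Of these, 4 were tested, 2 had a log2 fold change above 0 and only 1 was called, as lower, so the sum does not stand for each gene. The part of these markers in the shift of the arm was not tested.

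Promoters of 7 genes are shown because the results turn on these genes. CALU had the most counts, and NAMPT and TFPI2 were among those higher in PC-3-RRM2. CLCN1, FAM131B, ZYX and EPHA1 lie within the 145 kb from GSTK1 to EPHA1. CLCN1, FAM131B and ZYX were lower in PC-3-RRM2 and EPHA1 was higher. Each sequence is from RefSeq (GRCh38.p14), runs 5′ to 3′ on the strand of the gene from 250 bases before to 50 bases after its annotated start, and has matches to 5 motifs in capitals. The motifs, searched on both strands, were the GC box (GGGCGG), the TATA box (TATAAA), the CCAAT box, the AP-1 site (TGANTCA) and the E-box (CACGTG).
CALU: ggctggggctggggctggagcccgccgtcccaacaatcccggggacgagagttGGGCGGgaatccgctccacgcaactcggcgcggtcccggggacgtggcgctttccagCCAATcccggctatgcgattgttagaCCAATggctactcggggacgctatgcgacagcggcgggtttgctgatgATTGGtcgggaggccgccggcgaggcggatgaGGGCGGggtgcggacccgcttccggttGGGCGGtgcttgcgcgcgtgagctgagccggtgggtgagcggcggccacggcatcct
NAMPT: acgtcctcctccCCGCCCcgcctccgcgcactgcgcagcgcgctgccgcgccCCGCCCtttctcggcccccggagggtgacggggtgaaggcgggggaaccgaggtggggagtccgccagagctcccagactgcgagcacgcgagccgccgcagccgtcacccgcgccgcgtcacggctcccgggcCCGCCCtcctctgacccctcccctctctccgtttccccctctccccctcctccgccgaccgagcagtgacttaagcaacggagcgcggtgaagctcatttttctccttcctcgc
TFPI2: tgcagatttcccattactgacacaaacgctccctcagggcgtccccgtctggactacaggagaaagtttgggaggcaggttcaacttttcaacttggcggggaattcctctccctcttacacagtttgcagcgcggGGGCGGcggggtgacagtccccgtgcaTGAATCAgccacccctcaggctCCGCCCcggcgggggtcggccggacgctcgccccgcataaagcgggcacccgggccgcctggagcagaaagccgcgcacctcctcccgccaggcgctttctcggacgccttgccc
CLCN1: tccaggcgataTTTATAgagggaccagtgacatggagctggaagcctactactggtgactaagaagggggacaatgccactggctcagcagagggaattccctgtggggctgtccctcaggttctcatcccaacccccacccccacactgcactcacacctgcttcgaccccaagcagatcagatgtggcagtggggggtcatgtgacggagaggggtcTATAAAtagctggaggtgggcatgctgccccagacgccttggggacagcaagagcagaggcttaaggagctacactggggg
FAM131B: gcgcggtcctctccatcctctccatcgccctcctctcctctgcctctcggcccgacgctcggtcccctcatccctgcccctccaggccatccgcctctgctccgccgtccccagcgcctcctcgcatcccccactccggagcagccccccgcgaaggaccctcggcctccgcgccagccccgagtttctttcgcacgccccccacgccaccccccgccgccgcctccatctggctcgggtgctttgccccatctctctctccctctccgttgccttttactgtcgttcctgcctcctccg
ZYX: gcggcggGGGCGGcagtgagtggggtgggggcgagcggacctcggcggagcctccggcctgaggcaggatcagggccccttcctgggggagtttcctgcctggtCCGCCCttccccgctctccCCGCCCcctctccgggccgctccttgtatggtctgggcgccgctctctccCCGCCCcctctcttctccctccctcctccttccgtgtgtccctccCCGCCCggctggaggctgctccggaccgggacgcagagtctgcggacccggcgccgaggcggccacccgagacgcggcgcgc
EPHA1: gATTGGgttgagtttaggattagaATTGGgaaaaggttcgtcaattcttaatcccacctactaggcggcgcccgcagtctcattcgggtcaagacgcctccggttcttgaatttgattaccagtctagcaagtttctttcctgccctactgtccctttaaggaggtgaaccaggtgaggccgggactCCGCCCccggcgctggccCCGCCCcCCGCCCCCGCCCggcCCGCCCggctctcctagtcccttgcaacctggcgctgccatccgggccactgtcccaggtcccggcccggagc

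The window shown for CALU (chr7:128739109-128739408, plus strand) held 3 GC boxes and 3 CCAAT boxes, and that of NAMPT (chr7:106284934-106285233, minus strand) held 3 GC boxes. That of TFPI2 (chr7:93890704-93891003, minus strand) held 2 GC boxes and 1 AP-1 site. ZYX (chr7:143381095-143381394, plus strand) and EPHA1 (chr7:143408807-143409106, minus strand) had 5 GC boxes each, and EPHA1 also 2 CCAAT boxes. In EPHA1 a pair of GC boxes adjoin and appear as an unbroken run of capitals. CLCN1 (chr7:143315861-143316160, plus strand) had no GC box but 2 TATA boxes and 4 CpG dinucleotides, against 32 in ZYX. FAM131B (chr7:143362031-143362330, minus strand) held none of the 5 motifs, and its RefSeq start lies 668 bases from the gene's 5′ end in the deposited table. That distance was 239 bases for TFPI2, 210 for NAMPT, 78 for ZYX, 67 for CALU, 37 for EPHA1 and 15 for CLCN1. All 4 of these genes that were higher in PC-3-RRM2 held a GC box, and of the 3 that were lower ZYX did. The 7 were picked from the results, so no link to direction is read from them. Among all members with a promoter, a GC box was in 60.8% of 74 called higher, 33.3% of 15 called lower and 67.3% of 263 not called. A match is a description of the letters and not a bound site.

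Across the arm, promoters were matched for 352 of the 445 members tested. A GC box was present in 64.5% of them, against 67.8% of 11518 promoters of genes tested on other chromosomes and 45.0% of all 35116 promoters in the table. TATA boxes were present in 6.53%, CCAAT boxes in 35.8%, AP-1 sites in 5.97% and E-boxes in 11.4% of members. The corresponding shares on other chromosomes were 6.55%, 36.7%, 4.89% and 9.66%, and over all promoters 11.5%, 34.6%, 7.71% and 7.26%. The median GC content of the promoters was 64.3% in members and 64.7% in genes tested on other chromosomes. The 74 promoters of members called higher had a median of 23.5 CpG dinucleotides, and the 15 of members called lower a median of 5. The median was 24 for members not called, 25 for genes tested on other chromosomes and 14 for all promoters.

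The shift was spread over the arm. The median log2 fold change of the 445 members (PC-3-RRM2 against PC-3-EV) was 0.32, which is 1.25-fold, with quartiles over genes of 0.00 and 0.53. A value above 0 was found for 333 members, or 74.8%. On the chromosomes other than 7, 14965 genes had a median of -0.01 and 49.1% lay above 0. The 4 pairings of a PC-3-RRM2 with a PC-3-EV library gave member medians of 0.32, 0.32, 0.32 and 0.30 in log2 CPM. The 2 libraries of PC-3-EV differed from each other by a median of 0.01 and those of PC-3-RRM2 by 0.05. Each pairing between groups lay beyond both differences within a group. The stretch was chosen on these same libraries, so this is a description and not support for the shift. In bulk RNA, more cells with a high level and more RNA per cell cannot be told apart.

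As a share of all counts, the members made up 1.74% and 1.75% in the PC-3-EV libraries and 2.17% and 2.18% in the PC-3-RRM2 libraries. This is a ratio of 1.25 between the group means, with an SD between libraries of 0.00343 and 0.00875 percentage points (n = 2 each). The share did not rest on the most abundant genes. Without the 5 members of most counts it was 1.495% and 1.495% in PC-3-EV against 1.90% and 1.92% in PC-3-RRM2, or a ratio of 1.28. The genes of chromosome 7 below 75 Mb made up 2.12% and 2.13% in PC-3-EV against 2.31% and 2.30% in PC-3-RRM2, or a ratio of 1.09.

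**Figure D1:**
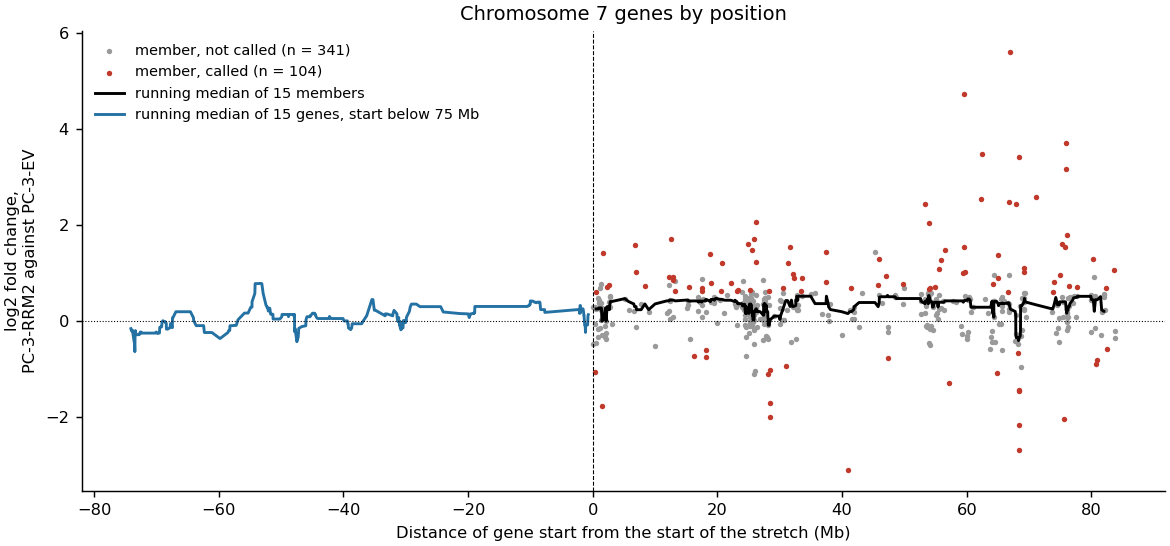
Log2 fold change (PC-3-RRM2 against PC-3-EV) of each of the 445 members by distance from the start of the stretch in Mb, with members called in red and the others in grey. The lines are running medians of 15 consecutive genes, black for the members and blue for the genes of chromosome 7 that start below 75 Mb. The black line stays above 0 at 412 of 431 positions and dips to -0.42 near 68 Mb from the start of the stretch.

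By position, the running median over 15 consecutive members was above 0 at 412 of 431 positions, or 95.6%. Below 75 Mb it was above 0 at 194 of 336 positions. In windows of 10 Mb from 75 Mb on, the medians were 0.26 (46 members tested), 0.42 (41), 0.26 (120), 0.39 (34), 0.44 (24), 0.40 (52), 0.30 (70), 0.33 (39) and 0.23 (19). All 9 windows were above 0 in all 4 pairings of libraries. The last window, with the fewest members, ran from 0.16 to 0.28 when a library was left out and was 0.51 with the GC trend removed.

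**Figure D2:**
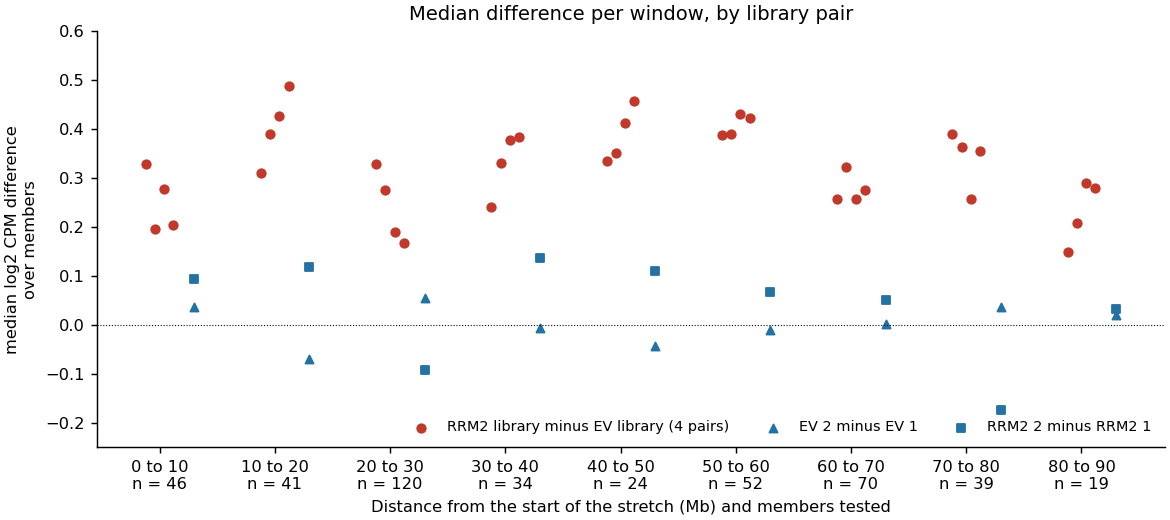
Median difference in log2 CPM over the members of each 10 Mb window, by distance from the start of the stretch, for the 4 pairings of a PC-3-RRM2 with a PC-3-EV library (red) and for the 2 libraries within each group (blue). In every window the 4 red points lie above 0, and the blue points scatter on both sides of it.

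The boundary at 75 Mb is that of the rule and not of the data. The 71 genes between 60 and 75 Mb, also on the long arm, had a median log2 fold change of 0.23, with 76.1% above 0. The 279 genes below 60 Mb had a median of 0.02. That last median pools unlike parts. It was -0.17 from 0 to 15 Mb, 0.08 from 15 to 30 Mb, 0.06 from 30 to 45 Mb and 0.20 from 45 to 60 Mb. Below 75 Mb the running median went from -0.64 at MAFK (1.53 Mb) to 0.78 at DNAH11 (21.5 Mb). Just below the boundary lay LOC101926943 (-0.66), GTF2IRD2 (0.38), STAG3L2 (0.11), PMS2P5 (0.30) and CASTOR2 (0.16). Just above it lay RCC1L (0.29), GTF2IRD2B (-0.48), STAG3L1 (-1.06, called lower), NSUN5P1 (0.29) and POM121C (-0.07). Many of these are repeated copies in the segment around the Williams syndrome region, such as GTF2IRD2 and GTF2IRD2B, which can share reads. Without PC-3-RRM2 replicate 1, PMS2P5 reached 0.63 and was called. The 21 genes left out by name had a median of 0.06, with 1 called higher and 2 called lower.

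Other chromosomes were also shifted. Chromosome 13 had a median log2 fold change of 0.35 over 270 genes and chromosome 4 a median of 0.13 over 583 genes. The medians of the remaining 20 chromosomes ran from -0.11 on chromosome 19 to 0.05 on chromosome 6.

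At the study's threshold (a fold change over 1.5 at an edgeR adjusted p below 0.05), 81 members were called higher, 23 were called lower and 341 were not called. Over all 15781 genes tested 18.2% were called, 9.97% higher and 8.19% lower. Among members these shares were 23.4%, 18.2% and 5.17%. Nothing is read from the difference, since the same contrast chose the arm. Most of the shift lay below the threshold. A log2 fold change between 0.2 and 0.58, the size of the 1.5-fold threshold, was found for 175 members, or 39.3%, and for 18.2% of genes on other chromosomes. Of the members called higher, 41 changed by less than 2-fold and 40 by more. The 54 members that were not tested had 10 to 39 counts over the 4 libraries.

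**Figure D3:**
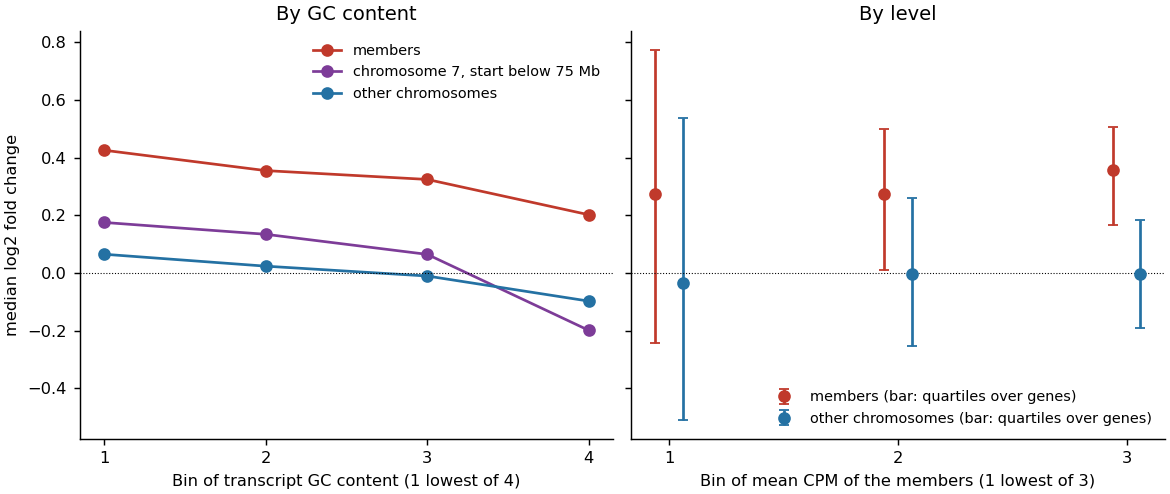
Median log2 fold change in 4 bins of rising transcript GC content (left) and 3 bins of rising mean CPM (right, with bars from the lower to the upper quartile over genes) for the members in red, the other chromosomes in blue and, on the left, the genes of chromosome 7 below 75 Mb in purple. The members lie above the other chromosomes in each bin.

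GC content of the transcript moved with the fold change throughout the table. In 4 bins of rising GC content the members had medians of 0.43, 0.36, 0.32 and 0.20, and the genes of other chromosomes 0.07, 0.02, -0.01 and -0.10. The difference between them was 0.36, 0.33, 0.33 and 0.30. The stretch was chosen on this contrast, and the part of GC content in its shift was not tested. With the GC trend removed, an alternative added after seeing the data, the member median was 0.36. In 3 bins of rising mean CPM the members had medians of 0.27, 0.27 and 0.36, and the share above 0 was 64.2%, 75% and 85.2%. The spread over genes, as the distance between quartiles, fell from 1.02 to 0.49 and 0.34. Protein-coding members (373) had a median of 0.35 and the other 72 a median of 0.21. Members that overlap no other gene (274) had a median of 0.33 and the 171 that do one of 0.28.

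Adjacent members were also compared with each other. Spearman's rho between their log2 fold changes was 0.15 over 442 pairs, and 0.19 over 14903 pairs on other chromosomes. This is across genes, which are not independent replicates. The longest unbroken row of members with values above 0 had 17 genes, from KIAA1324L to CLDN12 (86.9 to 90.4 Mb, median 0.43). It contained DBF4, which activates the kinase that fires replication origins, and the tight junction gene CLDN12. A further 15 in a row ran from TCAF1 to PDIA4 (143.9 to 149.0 Mb, median 0.47).

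**Figure D4:**
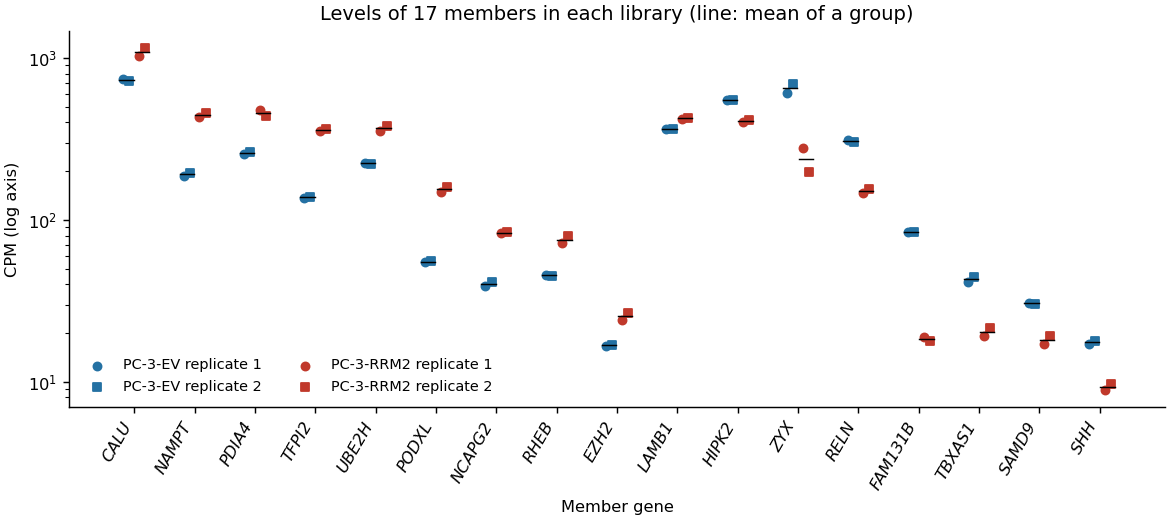
Level of 17 members in each library in CPM on a log axis, PC-3-EV in blue and PC-3-RRM2 in red, with circles for replicate 1, squares for replicate 2 and a line at the mean of each group. From CALU to LAMB1 both PC-3-RRM2 libraries lie above both PC-3-EV libraries, and from HIPK2 to SHH they lie below.

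Among the members with the most counts, CALU, a calcium-binding protein of the endoplasmic reticulum, had 746 and 725 CPM in PC-3-EV against 1024 and 1149 CPM in PC-3-RRM2. Its log2 fold change of 0.56 (SE 0.0804) stayed under the fold threshold, and without PC-3-RRM2 replicate 1 it was 0.64 and the gene was called. LAMB1, a laminin chain of basement membranes, had 362 and 365 CPM against 420 and 428 CPM (log2 fold change 0.22). ASNS, which makes asparagine, had 266 and 262 CPM against 321 and 355 CPM (log2 fold change 0.36). These 3 were not called. LAMB1 and ASNS lay between the quartiles of the members and CALU above the upper one. HIPK2, a nuclear kinase of the stress response, went the other way, with 553 and 552 CPM in PC-3-EV against 401 and 415 CPM in PC-3-RRM2 (log2 fold change -0.44, not called).

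Secreted and matrix genes held several of the larger changes. Of 22 tested, 8 were called higher and 1 lower, with a median log2 fold change of 0.31. This list and those below are set beside all members tested, with 74.8% above 0, 18.2% called higher and 5.17% lower. Over all genes tested 50.1% lay above 0, 9.97% were called higher and 8.19% lower. The lists are loose, some genes are in more than 1 list, and no list was tested as a set. TFPI2, a protease inhibitor of the extracellular matrix, had 137 and 139 CPM against 354 and 364 CPM (2.61-fold, log2 fold change 1.38, SE 0.0688). PTN, a heparin-binding growth factor, had 1.69 and 1.57 CPM against 8.79 and 10.2 CPM (5.79-fold). CPED1 had 4.34 and 3.43 CPM against 9.28 and 9.82 CPM (2.45-fold). For these 3 the groups did not overlap. RELN, a secreted glycoprotein known from neuronal migration, was the member called lower, with 313 and 305 CPM in PC-3-EV against 146 and 155 CPM in PC-3-RRM2 (2.05-fold lower). LOC101927870, which overlaps RELN and SLC26A5 on the opposite strand, had 9.33 and 8.66 CPM against 2.04 and 2.41 CPM. SLC26A5 was also called lower (log2 fold change -1.71). The strand setting of the counts is not given in the sources used here, so reads of these overlapping genes may not be separable.

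Of 29 growth signalling genes, 6 were called higher and 2 lower (median 0.40). EPHA1, a receptor for ephrin ligands, had 1.19 and 1.05 CPM in PC-3-EV against 13.01 and 11.1 CPM in PC-3-RRM2, 10.7-fold higher (log2 fold change 3.42, SE 0.182). HGF, the ligand of the MET receptor, had 1.53 and 1.504 CPM against 4.58 and 4.55 CPM. RHEB, the small GTPase that switches on mTORC1, had 45.9 and 45.0 CPM against 71.8 and 79.5 CPM (1.66-fold). The groups were apart in all 3. SHH, the hedgehog ligand, was lower, with 17.2 and 17.8 CPM in PC-3-EV against 8.96 and 9.66 CPM in PC-3-RRM2 (1.88-fold lower). The Wnt receptor FZD1 was the other member called lower, at a log2 fold change of -0.74.

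Adhesion and cytoskeleton genes were called in both directions, 9 higher and 4 lower of 30 tested (median 0.32). PODXL, a sialomucin of the cell surface, had 55.0 and 55.4 CPM in PC-3-EV against 149.6 and 159 CPM in PC-3-RRM2 (2.80-fold). CNTNAP2, a neurexin-like membrane protein, had 2.86 and 2.78 CPM against 15.8 and 17.9 CPM (5.97-fold). TRIP6, a LIM protein of focal adhesions, had 3.67 and 4.09 CPM against 13.7 and 11.6 CPM (3.26-fold). Both PC-3-RRM2 libraries exceeded both PC-3-EV libraries in these 3 genes. ZYX, which encodes zyxin and belongs to the same family of LIM proteins as TRIP6, moved the opposite way, with 607 and 692 CPM in PC-3-EV against 278 and 197 CPM in PC-3-RRM2 (2.73-fold lower, log2 fold change -1.45, SE 0.152). The ZYX libraries of a group lay further apart than those of most named members, but the groups did not overlap. PLXNA4, a receptor for semaphorins, had 10.8 and 9.22 CPM against 4.21 and 3.92 CPM. CDHR3 (-0.95) and PTPRN2 (-0.60) were the other members called lower.

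ZYX lay within the longest row of members with values below 0, 7 genes from GSTK1 to ZYX (143.263 to 143.391 Mb, median -1.45). In order along the chromosome the log2 fold changes were -0.48 for GSTK1, -0.68 for TMEM139, -0.35 for CASP2, -2.70 for CLCN1, -2.18 for FAM131B, -1.46 for LOC100507507 and -1.45 for ZYX. GSTK1, a glutathione transferase, and CASP2, a caspase, were not called, and the other 5 were. CLCN1, a chloride channel of muscle, had 136 and 121 counts in PC-3-EV against 17 and 18 in PC-3-RRM2 (6.50-fold lower). FAM131B had 83.7 and 83.8 CPM against 19.0 and 17.9 CPM (4.54-fold lower). LOC100507507 had 58.7 and 59.3 CPM against 21.9 and 20.9 CPM, and its 5′ end faces that of ZYX at a distance of 241 bases, and lies outside the promoter window printed for ZYX. EPHA1, on the minus strand, ends at the last base of ZYX, so that the 2 genes meet tail to tail, and it was higher by the amount given above. The running median of the arm was lowest here, -0.42 at CLCN1, and highest at FEZF1 (0.53, at 122.3 Mb).

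Of the genes of cell division and DNA repair, 17 of 18 lay above 0, beside 74.8% of all members. Of these genes 5 were called higher and 0 lower (median 0.46, beside 0.32 for all members). CDK14 (-0.38) was the one below 0. The list is loose and also holds LSM8 (0.58) and ANKIB1 (0.41), which act in splicing and ubiquitin transfer. NCAPG2, a subunit of condensin II, had 39.3 and 41.4 CPM in PC-3-EV against 82.6 and 84.3 CPM in PC-3-RRM2 (2.07-fold). DBF4 had 14.2 and 13.9 CPM against 24.7 and 28.0 CPM (1.87-fold). POT1, which caps telomeres, had 27.0 and 24.6 CPM against 41.9 and 46.3 CPM. In these 3 genes the 2 libraries of a group lay close together and the groups were apart. EZH2, the catalytic subunit of Polycomb repressive complex 2, had 16.7 and 16.9 CPM against 24.0 and 26.8 CPM, a log2 fold change of 0.59 that is just past the fold threshold. It was 0.58 or below, and not called, with RLE factors, with TMM factors set without chromosome 7, in DESeq2 and without PC-3-EV replicate 1 (0.56), PC-3-EV replicate 2 (0.56) or PC-3-RRM2 replicate 2 (0.51). RINT1, a partner of RAD50 that also acts in transport to the Golgi, had 46.6 and 44.8 CPM against 68.6 and 78.2 CPM.

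All 26 members of the mitochondrial and metabolic list lay above 0, beside 74.8% of all members. Of these 6 were called higher and 0 lower (median 0.36, highest 1.29 for INSIG1). NAMPT, the rate-limiting enzyme of NAD salvage, had 188 and 196 CPM in PC-3-EV against 429 and 460.5 CPM in PC-3-RRM2 (2.32-fold, log2 fold change 1.21, SE 0.0740). INSIG1, which restrains cholesterol synthesis, had 15.1 and 15.4 CPM against 36.7 and 37.98 CPM (2.45-fold). BPGM, which makes 2,3-bisphosphoglycerate in red cells, had 19.6 and 17.0 CPM against 35.8 and 38.01 CPM (2.01-fold). The groups were apart in all 3. The list is a loose one: GATAD1 (0.69), called higher, is a chromatin protein, and INSIG1 sits in the endoplasmic reticulum. PDK4, which inhibits pyruvate dehydrogenase, changed by 0.63 on the log2 scale and lost its call without PC-3-EV replicate 2 (0.53) or PC-3-RRM2 replicate 2 (0.50). NDUFA5 (0.50) and NDUFB2 (0.20), subunits of complex I, and ATP5MF (0.51), a subunit of ATP synthase, were not called. NDUFA5 and ATP5MF had an edgeR adjusted p below 0.05 and stayed under the fold threshold.

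Protein folding, ubiquitin and trafficking genes had 32 of 34 values above 0, 7 called higher and 0 lower (median 0.37). Of all members 74.8% lay above 0 and 18.2% were called higher. PDIA4, a disulfide isomerase of the endoplasmic reticulum, had 256 and 262 CPM in PC-3-EV against 476 and 437 CPM in PC-3-RRM2 (1.76-fold). UBE2H, a ubiquitin-conjugating enzyme, had 226 and 223 CPM against 354 and 382 CPM (1.64-fold). DNAJB9, a co-chaperone of the endoplasmic reticulum, had 37.1 and 34.6 CPM against 63.5 and 68.7 CPM. COG5, a Golgi tethering subunit, had 73.3 and 71.3 CPM against 127 and 141 CPM (1.85-fold). In all 4 genes both PC-3-RRM2 libraries were above both PC-3-EV libraries. Genes of RNA processing and translation had 26 of 29 values above 0 (median 0.42), but only RINT1 (0.68) and PNPLA8 (0.62) were called, and neither is an RNA factor, since PNPLA8 is a phospholipase. PNPLA8 was not called without PC-3-EV replicate 1 (0.58) or PC-3-RRM2 replicate 2 (0.55).

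**Figure D5:**
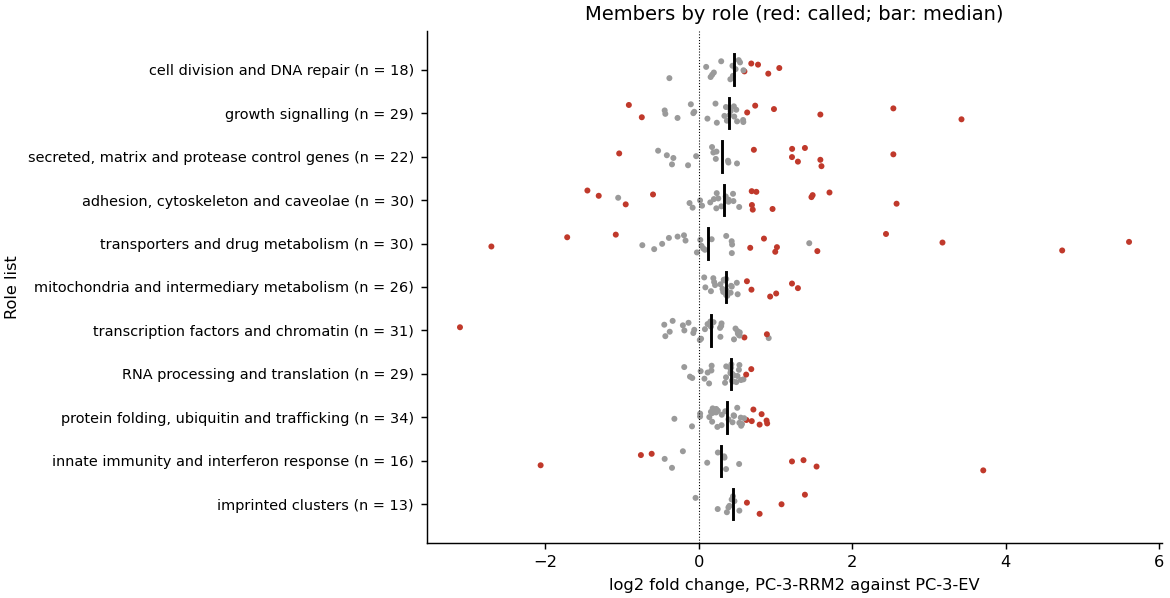
Log2 fold change of the tested members of 11 role lists, called members in red, others in grey and the median of each list as a black bar. The medians of all 11 lists lie above 0, between 0.12 for transporters and drug metabolism and 0.46 for cell division and DNA repair, beside 0.32 for all members.

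Transcription factors and chromatin genes had a median of 0.16 over 31 tested, with 2 called higher and 1 lower. KDM7A, a histone demethylase, had 34.9 and 34.98 CPM in PC-3-EV against 57.4 and 72.0 CPM in PC-3-RRM2, and EZH2 was the other. TFEC, a factor of the MITF family, had 29 and 31 counts against 2 and 4, 8.83-fold lower by the ratio of counts, with an exact 95% counting interval of 3.83 to 25.02, which covers counting error only. Transporters and drug metabolism had the smallest list median, 0.12 over 30, with 9 called higher and 3 lower. MGAM, a starch-digesting enzyme of the gut, had 2 and 2 counts in PC-3-EV against 95 and 89 in PC-3-RRM2, or a ratio of 52.1 (95% interval 20.001 to 193). AKR1B15, an aldo-keto reductase, had 3 and 2 counts against 63 and 61, a ratio of 28.1 (95% interval 11.7 to 88.0). It lies beside AKR1B10 (1.54) and AKR1B1 (1.00), which were also called higher, and related sequences of this family can share reads. KCNH2, also called higher, had 3 and 3 counts in PC-3-EV against 20 and 30 in PC-3-RRM2. MGAM, AKR1B15, AKR1B10 and KCNH2, all among the 9 called higher, passed the count filter only through PC-3-RRM2, and TFEC only through PC-3-EV. Their direction was thus set by the filter, and the intervals do not allow for this. TBXAS1, thromboxane synthase, had 41.6 and 44.2 CPM against 19.1 and 21.4 CPM (2.12-fold lower), and the groups did not overlap.

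Innate immunity genes were split, with 4 called higher and 3 lower of 16 (median 0.29). PARP12, an ADP-ribosyltransferase induced by interferon, had 5.66 and 6.90 CPM in PC-3-EV against 16.8 and 15.5 CPM in PC-3-RRM2 (2.58-fold). SAMD9, an antiviral protein, had 30.8 and 30.2 CPM against 17.1 and 19.1 CPM (1.69-fold lower). Its neighbour SAMD9L had 20.8 and 21.7 CPM against 12.8 and 14.97 CPM. Both of these neighbours were thus lower in each PC-3-RRM2 library, within a window where 10 members were called higher and 3 lower. GIMAP6, a GTPase of lymphocytes, was lower, but its counts were low, with 41 and 26 in PC-3-EV against 8 and 6 in PC-3-RRM2. It passed the count filter only through PC-3-EV, which set its direction.

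Of the genes in and next to the imprinted clusters, 12 of 13 lay above 0, beside 74.8% of all members. Of these genes 4 were called higher and 0 lower (median 0.45). MEST, an imprinted gene expressed from the paternal copy, had 9.33 and 8.14 CPM in PC-3-EV against 18.2 and 18.7 CPM in PC-3-RRM2 (2.11-fold). PEG10 and SGCE, a pair of imprinted genes side by side, lay at 0.46 and 0.45 and were not called. The other called members, TFPI2, BET1 and PDK4, are neighbours of that cluster. BET1, a SNARE of transport from the endoplasmic reticulum to the Golgi, had 44.4 and 45.2 CPM against 73.5 and 81.7 CPM. PPP1R9A lay at -0.04.

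Outside the lists, CCDC71L had 20.1 and 21.3 CPM in PC-3-EV against 59.99 and 60.7 CPM in PC-3-RRM2 (2.91-fold). The long noncoding RNA APTR had 6.11 and 6.31 CPM against 10.2 and 10.5 CPM. Among those lower, LOC100133091 had 24.96 and 27.4 CPM against 7.61 and 7.62 CPM (3.44-fold lower), and it overlaps other genes of the table. FEZF1-AS1 had 8.17 and 7.68 CPM against 4.91 and 4.35 CPM. MDFIC (-0.29) and LOC155060 (-0.25), named by the rule for windows, were not called. Of the 104 called members, 34 had a mean under 5 CPM, 26 of them higher and 8 lower.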

How the data were processed

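RNA-seq libraries of PC-3-EV and PC-3-RRM2 (2 each) were read from 1 table of the series. The authors quantified reads per gene in Partek Flow and deposited estimated counts that were not normalized. Not given in the sources used here were the software version, the aligner, the annotation and whether counting used strand. Coordinates fell on the gene of the same name in RefSeq GRCh38.p14 for 468 of 468 members whose symbols were listed.

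Estimated counts were rounded, filtered by group with filterByExpr (15781 genes left) and scaled by TMM. Groups were compared with the quasi-likelihood test of edgeR (version 4.0.16, R 4.3.3) over all genes, with Benjamini-Hochberg adjustment, and called where the fold change was over 1.5 at an adjusted p below 0.05. limma-voom (3.58.1), DESeq2 (1.42.0), other factors and filters, left-out libraries and a replicate block were alternatives. The test was tested on simulated data. CPM are counts scaled in the usual way to the TMM-adjusted library size. GC content came from GENCODE release 29 transcripts and was matched for 93.9% of members. Log2 CPM between library pairs used a prior count of 2. Tables and figures were made in Python 3.11.15.

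Named genes were the members of largest change among those called with a mean of at least 5 CPM and groups apart, those of most counts, the leading members of 11 role lists and of each window, and the neighbours of the boundary. FZD1, CDK14, CDHR3, PTPRN2, SAMD9L, AKR1B1, AKR1B10, KCNH2, the genes of the row around ZYX, and list members given with a log2 fold change alone were named with their values in view. Some members that the rule names are not reported here. The members and lists were chosen with earlier results of these data known. No label states that replicate libraries were grown as separate cultures, so the p-values reflect the spread among these 4 libraries alone, which may be technical. An exact permutation test of 1 value cannot go below p = 0.333 with 2 against 2, and none was used. The 2 libraries of a group were not copies of each other (chi-square per degree of freedom 6.42 and 16.7). Among members tested, 4 shared their place and counts with another.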

Additional observations from a re-analysis of the deposited data

How the results depend on the processing

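The member median of 0.32 ran from 0.27 to 0.36 over all alternatives, and 0.27 to 0.33 when a library was left out. The share above 0 ran from 70.8% (without PC-3-RRM2 replicate 1) to 75.3% over left-out libraries, and was 79.4% at a mean CPM of at least 5 and 78.2% with the GC trend removed. Members called higher numbered 60 to 92 and members called lower 14 to 25, with 14 lower at a mean CPM of at least 5. With a replicate block 82 were called higher and 24 lower. Same-numbered libraries deviated in opposite directions (r = -0.27 across genes), and the crossed pairing called 83 higher and 25 lower. Window medians over left-out libraries ran from 0.17 to 0.32 at 95 to 105 Mb, 0.28 to 0.39 at 105 to 115 Mb, 0.38 to 0.45 at 125 to 135 Mb, 0.24 to 0.33 at 135 to 145 Mb and 0.16 to 0.28 at 155 to 165 Mb. At 135 to 145 Mb the median was 0.37 at a mean CPM of at least 5 and 0.26 with the GC trend removed, which gave 0.51 at 155 to 165 Mb. Shares of counts without the 5 members of most counts were 1.495% and 1.91% on group average. No median turned direction, and the causes of these movements were not tested. Of 48 named genes called, 45 kept the call under every alternative in which they were tested. Many were named for a large change or a small p in the main fit, so this is not independent support. Changes of scaling moved the median of all genes by at most 0.02. With 2 libraries a group, members under about 5 CPM carry the widest errors.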
